A study of Mus musculus with 8 samples.

Results

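The genes described here are those of the epidermal differentiation complex, a cluster of genes for structural and calcium-binding proteins of the outer skin. The members were chosen by symbol, as the Lce, Sprr and S100a genes (S100a3 left out) plus Flg, Flg2, Lor, Ivl, Rptn, Tchh and Crct1. Of these, 40 had a probe set that the platform annotation assigns to 1 symbol alone, out of 17097 genes measured in that way. They comprised 10 Sprr genes, 13 Lce genes (10 Lce1 and 3 Lce3), 12 S100a genes and 5 single genes (Flg, Lor, Ivl, Rptn and Tchh). Flg2 and Crct1 were not analysed here. All 40 matched the RefSeq gene table by Entrez number and lay on mouse chromosome 3, in a span of 71 genes that held 31 other protein-coding genes. Those others included relatives that are not among the members, such as Sprr2a2, Sprr2a3, Sprr2b, Sprr2e, Lce1c, Lce1e, Lce1j, Lce1k, Lce3d, Lce3e and Lce3f. Statements on a subfamily concern its members alone.

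The study profiled mouse skin tumour cells, sorted by flow cytometry for the epithelial surface protein Epcam, on 8 Affymetrix arrays in 4 groups of 2. NR2F2 (COUP-TFII) is a DNA-binding nuclear receptor of the orphan class. Papillomas, which are benign skin tumours, came from controls (genotype NR2F2 WT) and from animals overexpressing NR2F2 (genotype NR2F2 GOF, gain of function). Squamous cell carcinomas came from controls without Cre (Cre-, genotype NR2F2 WT) and from K5CreER;NR2F2fl/fl animals (genotype NR2F2 KO, titled LOF for loss of function), in which a keratin 5 promoter drives an inducible Cre and the Nr2f2 alleles are floxed. What drove the overexpression, how the tumours were induced, and the strain, age and number of animals are not given in the sources used here. Nothing in the labels ties the arrays of a group to separate animals, so every p-value measures only the spread between these arrays. No level is compared between papilloma and carcinoma, since their values were on different scales.

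The cornified envelope is a layer of cross-linked protein that replaces the plasma membrane of dying keratinocytes. Loricrin and involucrin are scaffold proteins of that layer, small proline-rich (Sprr) proteins bridge them, late cornified envelope (Lce) proteins are added late, and filaggrin aggregates keratin filaments. S100a proteins bind calcium, and S100a8 and S100a9 pair as calprotectin, which stressed keratinocytes and myeloid cells both make. In normal epidermis most of these genes turn on as cells leave the basal layer, and the Sprr genes are also known for rising in wounded and hyperplastic skin.

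Promoter sequences were taken from RefSeq for 5 Lce and Sprr members, picked among those with large differences. Sprr2j-ps, whose difference in GOF papilloma exceeded that of Sprr2k, had no promoter sequence to print. Lce1h, with the largest Lce difference in LOF carcinoma, is not printed. The 250 bases before the transcription start are given 5′ to 3′ on the gene's own strand (GRCm38.p6). Capitals mark matches on either strand to the TATA box (TATAAA), the AP-1 site (TGANTCA), the AGGTCA half-site that nuclear receptors of the NR2F type recognise, and the octamer (ATGCAAAT). Sprr2i (chr3:92407741-92407990, plus strand) and Sprr2k (chr3:92432332-92432581, plus strand) stood at least 1.5-fold higher in GOF papilloma. Sprr2f (chr3:92364937-92365186, plus strand) had the largest difference in LOF carcinoma. Lce1d (chr3:92687211-92687460, minus strand) and Lce3a (chr3:92926231-92926480, minus strand) had the largest differences in GOF papilloma.
Sprr2i: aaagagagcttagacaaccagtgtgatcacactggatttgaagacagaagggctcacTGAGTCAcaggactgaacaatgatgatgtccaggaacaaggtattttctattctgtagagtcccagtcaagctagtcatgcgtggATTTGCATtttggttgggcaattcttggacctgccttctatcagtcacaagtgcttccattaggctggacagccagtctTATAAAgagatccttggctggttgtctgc
Sprr2k: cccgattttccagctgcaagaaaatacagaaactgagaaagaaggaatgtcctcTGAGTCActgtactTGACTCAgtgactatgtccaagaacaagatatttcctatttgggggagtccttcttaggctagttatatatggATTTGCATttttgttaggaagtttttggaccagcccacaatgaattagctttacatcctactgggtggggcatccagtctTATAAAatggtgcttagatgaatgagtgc
Sprr2f: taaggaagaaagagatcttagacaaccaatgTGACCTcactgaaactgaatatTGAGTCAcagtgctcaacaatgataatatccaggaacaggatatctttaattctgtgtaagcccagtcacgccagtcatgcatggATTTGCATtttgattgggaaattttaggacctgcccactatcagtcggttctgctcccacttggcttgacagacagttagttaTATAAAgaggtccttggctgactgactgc
Lce1d: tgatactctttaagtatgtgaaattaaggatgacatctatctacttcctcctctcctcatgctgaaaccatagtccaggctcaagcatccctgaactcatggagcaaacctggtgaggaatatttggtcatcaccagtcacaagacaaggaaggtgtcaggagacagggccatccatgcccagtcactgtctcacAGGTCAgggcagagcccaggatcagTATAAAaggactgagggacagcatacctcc
Lce3a: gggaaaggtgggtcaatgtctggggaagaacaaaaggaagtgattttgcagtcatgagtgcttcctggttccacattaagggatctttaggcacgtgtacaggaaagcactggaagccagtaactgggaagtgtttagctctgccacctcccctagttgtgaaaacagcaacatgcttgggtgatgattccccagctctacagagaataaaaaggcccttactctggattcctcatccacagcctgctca

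The 3 Sprr2 promoters printed here shared a layout. Each held a TATA box starting at -29, an octamer starting at -108 to -112 and an AP-1 match farther upstream, at -193 in Sprr2i, at -197 in Sprr2f and at both -196 and -182 in Sprr2k. Sprr2f alone of the 3 held the AGGTCA half-site, at -219. Lce1d held a TATA box at -30 and the half-site at -55, and Lce3a held none of these letters.

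Over windows of 300 bases (250 before to 50 after the start), 36 of the 40 members could be read, and 27025 genes in all. The AP-1 letters were in 7 of 9 Sprr windows, in 0 of 12 Lce windows and in 13 of the 36 member windows, against 7.93% of all windows. TATAAA was in 18 of 36 windows, against 14.2% of all. The octamer was in 5 of 36 windows, against 1.75% of all, and those 5 were Sprr2d, Sprr2f, Sprr2h, Sprr2i and Sprr2k. The half-site was in 9 of 36 windows, against 16.0% of all, and the site of grainyhead-like factors (AACCGGTT) in 0 of 36, against 0.152%. No match overlapped another motif in the member windows. The windows of the 6 Sprr2 genes were 49.7% to 81.8% identical over 15 pairs (median 64.1%), and those of the 9 Lce1 genes were 51.0% to 86.0% identical over 36 pairs (median 66.3%). These are matches of letters, not sites shown to be bound.

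The targeted gene followed the labels. Nr2f2 stood at 2.80 and 2.55 on the control papilloma arrays, below background, and at 11.43 and 11.47 on the GOF arrays (log2 values, at least 321-fold, limma adjusted p = 3.99e-06). In carcinoma it stood at 7.93 and 8.14 in controls and at 4.77 and 5.00 in LOF (log2 fold change -3.15, limma adjusted p = 0.0109). LOF replicate 1 was below its background of 5.01 and LOF replicate 2 just above its background of 4.95, so background limits the size of this difference. The basal keratins Krt5 and Krt14 lay between 12.02 and 12.47 on every papilloma array and between 12.29 and 12.75 on every carcinoma array. Krt1 and Krt10, the keratins of the layers above, lay between 10.38 and 11.65 in papilloma, while in carcinoma Krt1 was at or below background on 3 arrays and at 6.54 on control replicate 2. Epcam, the sort marker, averaged 10.37 ± 0.29 (SD, n = 2) in control papilloma and 8.84 ± 0.23 in GOF papilloma, 2.88-fold lower (limma adjusted p = 0.0173). Array medians were 3.12 to 3.16 in papilloma and 5.08 to 5.15 in carcinoma, and background, the highest of 44 non-mouse control probe sets on each array, lay at 3.09 to 3.33 and at 4.95 to 5.01.

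The first comparison asked which members differed when NR2F2 was overexpressed in papilloma. Of the 40 members, 3 passed the test, limma with Benjamini-Hochberg adjustment over all 17097 genes at a threshold of 0.05. These were Lce1d, Lce3a and Sprr2i, each higher in GOF papilloma. Over all genes, 1.05% passed. A descriptive rule, a difference of 1.5-fold or more with 1 sign across the 4 array pairs, was met by 10 members in the higher direction (25% of members), against 3.21% of all genes. The other members so counted were Sprr2j-ps, Sprr2k, Sprr1b, Lce3c, Lor, S100a13 and S100a9. In the lower direction the rule was met by 0 of 40 members, against 1.81% of all genes. The arrays of the groups did not overlap in 23 of 40 members, against 46.3% of all genes, so that separation of the arrays alone is common here. The median log2 fold change was 0.27 over the members, with 27 positive and 13 negative, and 0.01 over all genes. At an unadjusted p below 0.05 there were 15 members and 2632 of all genes. When the 4 papilloma arrays were fitted alone, 9 members and 280 of all genes passed the adjusted threshold: Lce3c, S100a13, S100a9, Sprr1b, Sprr2j-ps and Sprr2k beside the 3. With 2 arrays against 2, an exact permutation test cannot give a p below 0.333.

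**Figure D1:**
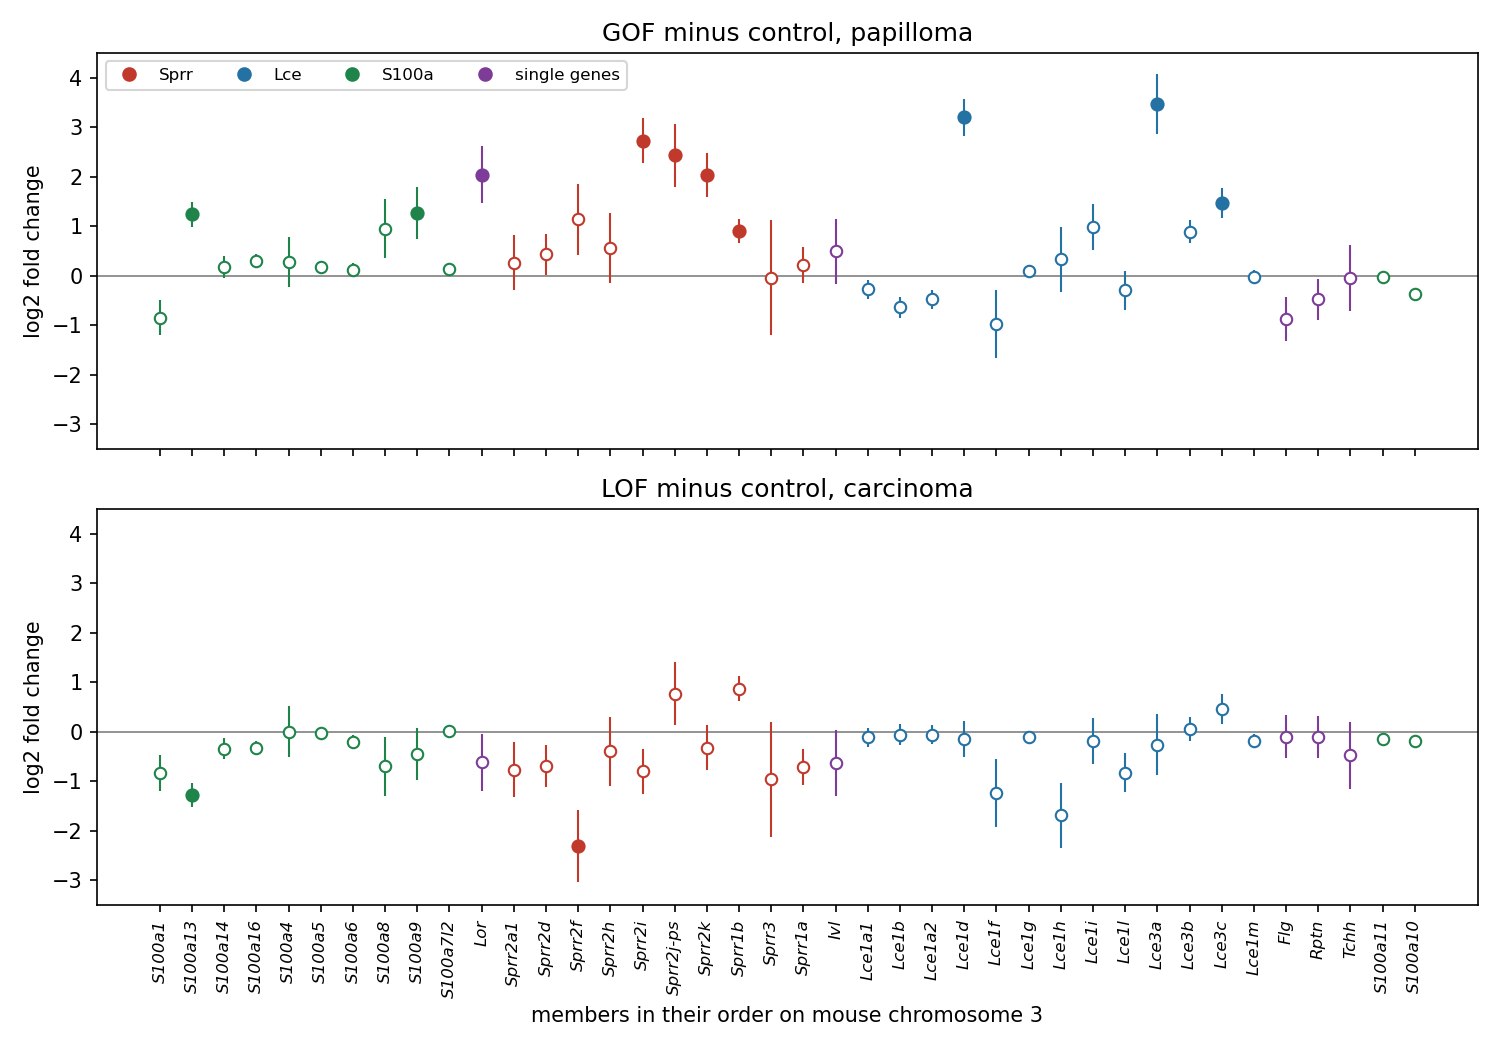
Log2 fold change of each of the 40 members, GOF minus control in papilloma (top) and LOF minus control in carcinoma (bottom), in chromosomal order. Points are estimates, bars their limma standard errors, colours subfamilies, and filled points members that met the 1.5-fold rule, of which there were 10 in papilloma, all higher, and 2 in carcinoma, both lower.

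Among the single genes of the envelope, loricrin stood highest against its control. Lor, which encodes loricrin, was at 4.82 and 5.61 on the control papilloma arrays and at 6.88 and 7.62 on the GOF arrays. Both GOF arrays lay above both controls. That is 4.11-fold (log2 fold change 2.04, SE 0.58, limma adjusted p = 0.157), which did not pass the test. It passed in 2 of 18 alternatives only, each without 1 of the control carcinoma arrays, which enter through the shared spread. The log2 fold change of Lor ran from 1.64 to 2.43 over the alternatives. Ivl, which encodes involucrin, was at 6.55 and 5.86 in controls and at 5.86 and 7.53 in GOF, so that the groups overlapped (log2 fold change 0.49).

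Flg, Rptn and Tchh, the large fused-type S100 genes of the complex, did not separate by group. Flg, for profilaggrin, was at 3.60 and 5.21 in control papilloma and at 3.24 and 3.82 in GOF (log2 fold change -0.88, limma adjusted p = 0.400). Rptn, for the filaggrin-like protein repetin, was at 3.73 and 5.08 in controls and at 3.68 and 4.17 in GOF. Tchh, for trichohyalin, a protein of the hair follicle's inner sheath, was at 4.57 and 5.63 in controls and at 4.76 and 5.32 in GOF. Over 18 alternatives the log2 fold change of Flg ran from -1.68, without control replicate 1, to -0.08. It passed the test in the first of these alone. In all 3 genes the control arrays spanned more than 1 log2 unit, with replicate 2 the higher, and the groups overlapped. The markers of the follicle sheath and shaft were also higher on control replicate 2, with a mean over 9 measured genes of 4.82 and 6.27 in control papilloma. In GOF the mean of these 9 was 3.92 and 3.87, below both controls, whereas Tchh was level (log2 fold change -0.05). Of those 9, 5 met the 1.5-fold rule downward and 1 passed the test, Krt25 (log2 fold change -3.18, SE 0.47, limma adjusted p = 0.0285). Their part in the values of Tchh and Flg was not tested. In bulk samples, fewer cells of a type and less RNA per cell cannot be told apart.

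Of the 10 Sprr members, 9 had a positive log2 fold change, 4 met the 1.5-fold rule and 1 passed the test. All 7 Sprr2 members were positive, with a median of 1.14. Sprr2i was the member that passed, and it rose. It stood at 7.20 and 7.42 on the control arrays and at 9.88 and 10.21 on the GOF arrays, and the groups lay more than 2 log2 units apart. That is 6.64-fold (log2 fold change 2.73, SE 0.46, limma adjusted p = 0.0413). The call was lost without any 1 of the papilloma arrays (limma adjusted p from 0.115 to 0.271) and without LOF replicate 1 (0.0685) or 2 (0.0680), which enter through the shared spread.

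Sprr2j-ps, annotated as a pseudogene of the family, was at 8.02 and 7.02 in control papilloma and at 9.91 and 9.97 in GOF (5.38-fold, limma adjusted p = 0.13). Sprr2k was at 6.98 and 5.93 in controls and at 8.51 and 8.47 in GOF (4.09-fold, limma adjusted p = 0.0885). Sprr1b, of the Sprr1 pair that is strongly induced in stressed epidermis, was at 10.07 and 10.14 in controls and at 10.92 and 11.08 in GOF (1.86-fold, limma adjusted p = 0.149). None of the 3 passed the test. Of 19 alternatives, Sprr1b passed in 3, Sprr2j-ps in 2 and Sprr2k in 1. Each passed with the 4 papilloma arrays fitted alone. Sprr1b also passed without LOF replicate 1 or 2, and Sprr2j-ps without LOF replicate 2.

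Sprr2i, Sprr2j-ps, Sprr2k and Sprr1b are 4 consecutive genes on the chromosome, and they are the Sprr genes that met the 1.5-fold rule. Their Sprr neighbours on either side did not meet it. Sprr2f was at 9.24 and 10.59 in controls and at 11.18 and 10.93 in GOF (log2 fold change 1.14, limma adjusted p = 0.512). Sprr2d, the brightest Sprr2 probe set in this tumour type, was at 11.18 and 11.33 in controls and at 11.65 and 11.70 in GOF (log2 fold change 0.43, limma adjusted p = 0.706). Sprr2a1 was at 10.26 and 11.16 in controls and at 10.20 and 11.73 in GOF. Sprr2h and Sprr1a had log2 fold changes of 0.56 and 0.21. Sprr3 was not above background on any papilloma array. Probe sets for such close relatives can pick up each other's transcripts, and whether the 4 neighbours were read apart was not tested.

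Lce genes held the largest differences, in 2 of their 13 members. Lce3a stood at 3.91 and 5.35 on the control arrays and at 7.85 and 8.35 on the GOF arrays (log2 fold change 3.47, SE 0.61, limma adjusted p = 0.0486), 11.1-fold. Lce1d stood at 3.84 and 5.05 in controls and at 7.42 and 7.87 in GOF (log2 fold change 3.20, SE 0.37, limma adjusted p = 0.0142), 9.22-fold. In both genes every GOF array lay more than 2 log2 units above every control array, and control replicate 1 was the lower of the controls. Lce1d lost its call without GOF replicate 1 (limma adjusted p = 0.0906) or 2 (0.155). Lce3a lost it without any 1 papilloma array (limma adjusted p from 0.0742 to 0.280) and without LOF replicate 1 (0.0809) or 2 (0.0827). The Lce1d probe set is of a kind (suffix _x_at) whose probes may also match related transcripts. So are those of Lce3c (_x_at) and Lor (_s_at). Without probe sets of these suffixes, 7 of 31 members and 518 of all genes met the 1.5-fold rule upward. Lce1d, Lce3c and Lor have no other probe set and dropped out there.

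The other Lce3 members did not pass the test. Lce3c, the brightest Lce probe set, was at 7.93 and 8.56 in controls and at 9.67 and 9.77 in GOF (2.78-fold, limma adjusted p = 0.0693). Lce3b (log2 fold change 0.89, limma adjusted p = 0.14) did not meet the 1.5-fold rule. Among the Lce1 genes, Lce1d alone met the rule. The other 9 ran from -0.98 (Lce1f) to 0.98 (Lce1i), and the median of the 10 was -0.15. Lce1a1, Lce1a2 and Lce1b, which lie next to each other, were above background on control replicate 2 alone, at 3.56, 3.62 and 3.61.

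Of the 12 S100a genes, 2 met the 1.5-fold rule and none passed the test in papilloma. S100a13, a protein linked to unconventional secretion of growth factors, was at 6.24 and 6.25 in controls and at 7.52 and 7.44 in GOF (log2 fold change 1.24, SE 0.25, limma adjusted p = 0.069), 2.35-fold. Its arrays agreed within 0.1 log2 units in each group. S100a1, the neighbouring gene on the opposite strand, went the other way in value, from 5.59 and 6.32 to 5.43 and 4.78 (log2 fold change -0.85, limma adjusted p = 0.314). The 300-base promoter windows of these neighbours share 204 bases.

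S100a9 was at 9.76 and 9.17 in control papilloma and at 10.63 and 10.84 in GOF (2.42-fold, limma adjusted p = 0.309). S100a8 was at 9.67 and 8.40 in controls and at 9.82 and 10.15 in GOF (log2 fold change 0.95, limma adjusted p = 0.499). Neither calprotectin gene passed the test. S100a9 passed without control carcinoma replicate 1 (limma adjusted p = 0.0349) or 2 (0.0393). S100a11, the brightest S100a probe set, was level, at 11.66 and 11.62 in controls and at 11.59 and 11.64 in GOF. The remaining S100a genes ran from -0.38 (S100a10) to 0.29 (S100a16) on the log2 scale, and S100a5 and S100a7l2 were not above background on any papilloma array.

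Markers of other cell types moved in the same comparison. Of 12 macrophage and monocyte markers, 11 met the 1.5-fold rule upward and 5 passed the test, led by Lyz2 (log2 fold change 5.56, limma adjusted p = 0.00723). Their mean was 3.27 and 3.18 in control papilloma and 5.55 and 6.66 in GOF. The neutrophil markers, 8 measured, stood at a mean of 3.11 and 2.95 in controls and 3.11 and 3.20 in GOF, with 0 past the test. Their log2 fold changes were positive in 6 and negative in 2, with a median of 0.14. Csf3r had the largest, at 2.62 and 2.56 in controls and at 2.96 and 3.27 in GOF, above background on GOF replicate 2 alone. Cxcr2, the 1 marker above background on all papilloma arrays, was at 5.08 and 4.03 in controls and at 4.39 and 4.77 in GOF (log2 fold change 0.03). Of 10 endothelial markers, 9 met the rule upward and 5 passed. Of 9 T cell, Langerhans and dendritic markers, 4 passed upward: Cd207, H2-Aa, H2-Ab1 and H2-Eb1. The T cell genes Cd3e and Cd3g were not above background on any papilloma array. Cd8a and Cd4, at log2 fold changes of -0.18 and 0.66, did not pass. Of 10 fibroblast markers none passed. Of 9 basal keratinocyte markers, 5 passed downward. The part of these cell types in the values of S100a8, S100a9 and the other members was not tested.

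**Figure D2:**
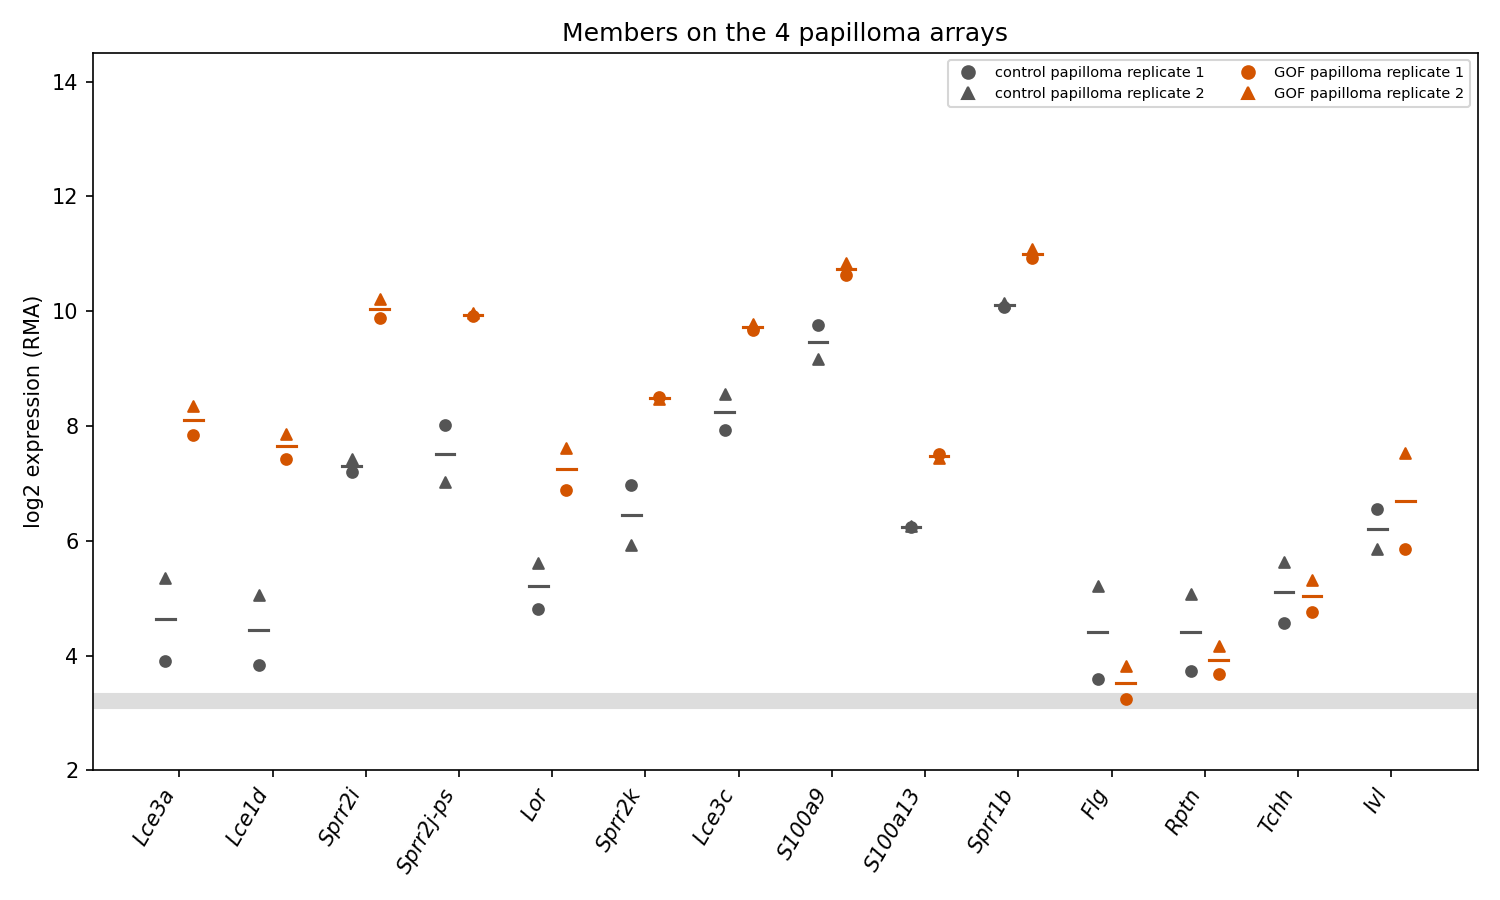
Log2 level on each papilloma array for the 10 members that met the 1.5-fold rule (left, by fold change) and for Flg, Rptn, Tchh and Ivl (right). Grey is control and orange GOF, circles and triangles are replicates 1 and 2, bars are group means and the grey band is background; the groups separate in the first 10 genes and overlap in the last 4.

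The second comparison asked which members differed when Nr2f2 was removed in carcinoma. No member passed the test (0 of 40, lowest limma adjusted p = 0.144), against 0.0526% of all genes, that is 9 genes. Without control replicate 1, 5 members and 376 genes passed, and without control replicate 2, 1 member and 62 genes. At an unadjusted p below 0.05 there were 6 members and 1932 of all genes. The 1.5-fold rule was met downward by 2 members, Sprr2f and S100a13, or 5% of members against 1.21% of all genes. Upward it was met by 0 members, against 1.16% of all genes. The arrays of the groups did not overlap in 15 of 40 members, against 41.3% of all genes. The log2 fold change was negative in 34 of 40 members, with a median of -0.29, against 0.00 over all genes.

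Control carcinoma replicate 2 carried much of that direction. It was the highest of the 4 arrays for 25 of the 40 members, against 23.7% of all genes, and for 8 of the 10 Sprr genes. LOF replicate 2 was the lowest for 25 members, against 23.5% of all genes. Without control replicate 2, chosen after seeing the data, the members had 23 negative and 17 positive values and a median of -0.08. Without LOF replicate 2 the median was -0.11, with 29 negative. Without control replicate 1 there were 34 negative and a median of -0.29, and without LOF replicate 1 there were 36 negative and a median of -0.55. On control replicate 2 the mean of the macrophage and monocyte markers was 7.11, against 5.54, 5.40 and 5.70 on control replicate 1 and the LOF arrays. The fibroblast markers stood at 7.54 there, against 6.07, 5.59 and 6.22, and the cornification partners at 7.04, against 5.87, 6.43 and 6.39. The part of these in the members' values was not tested.

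Sprr2f had the largest difference among the members. It stood at 7.87 and 10.05 on the control carcinoma arrays and at 7.20 and 6.08 on the LOF arrays (log2 fold change -2.31, SE 0.72, limma adjusted p = 0.300), 4.98-fold lower. Both LOF arrays lay below both controls, but the controls differed from each other by about as much. Without control replicate 1 the log2 fold change was -3.41 (limma adjusted p = 0.0335), and without replicate 2 it was -1.22 (limma adjusted p = 0.633). The remaining Sprr genes did not separate by group, except Sprr1b.

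Sprr1b averaged 9.03 ± 0.04 (SD, n = 2) in control carcinoma and was at 10.34 and 9.47 in LOF, the highest positive value among the members (log2 fold change 0.87, limma adjusted p = 0.271). Sprr2a1, the brightest Sprr2 probe set here, was at 12.38 and 12.85 in controls and at 12.46 and 11.22 in LOF. Sprr2d was at 10.22 and 11.26 in controls and at 10.68 and 9.42 in LOF. In both, control replicate 2 was the highest array and LOF replicate 2 the lowest.

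Sprr2i, the Sprr gene that rose in GOF papilloma, was at 4.90 and 6.39 in control carcinoma and at 5.12 and 4.57 in LOF (log2 fold change -0.80, limma adjusted p = 0.585). Sprr2k was at 7.61 and 8.52 in controls and at 8.16 and 7.33 in LOF. Sprr2j-ps was at 5.78 and 5.28 in controls and at 7.36 and 5.25 in LOF. Sprr3, for a protein typical of internal stratified epithelia, was at 4.13 and 8.69 in controls and at 5.54 and 5.36 in LOF, so that 1 control array held both the spread and the sign. Over the 10 Sprr genes the median was -0.70, with 8 negative.

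Of the 13 Lce genes, 6 were not above background on any carcinoma array and 4 were above it on all 4 arrays, against 5430 and 10225 of all 17097 genes. Lce1h stood at 4.80 and 7.12 in controls and at 4.10 and 4.44 in LOF, at least 1.98-fold lower (limma adjusted p = 0.393). Control replicate 2 alone was above background. Without control replicate 1 the log2 fold change was -2.85, and without control replicate 2 it was -0.53. The Lce1h probe set also has the suffix _x_at, so its probes may match related transcripts. Lce1d, which rose in GOF papilloma, was below background on all 4 arrays, at 4.20 and 3.92 in controls and at 3.91 and 3.92 in LOF. Lce3a was at 4.55 and 6.14 in controls and at 5.42 and 4.75 in LOF, and the groups overlapped. Lce3c was at 7.88 and 7.95 in controls and at 8.76 and 7.99 in LOF (log2 fold change 0.46, limma adjusted p = 0.637).

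Among the single genes, Ivl was the brightest probe set in carcinoma, at 9.79 and 8.43 in controls and at 9.05 and 7.92 in LOF (log2 fold change -0.63, limma adjusted p = 0.837). Lor was at 4.92 and 6.76 in controls and at 5.03 and 5.42 in LOF. Tchh was at 4.97 and 6.16 in controls and at 6.04 and 4.12 in LOF. Flg, between 3.26 and 3.48, and Rptn, between 3.97 and 4.59, were below background on every carcinoma array. In Ivl, Lor and Tchh the arrays of the groups overlapped.

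S100a13 was the S100a gene with the largest difference. It stood at 7.54 and 7.88 on the control carcinoma arrays and at 6.70 and 6.17 on the LOF arrays, with no overlap (log2 fold change -1.28, SE 0.25, limma adjusted p = 0.144), 2.42-fold lower. S100a1, its neighbour, was at 7.46 and 6.76 in controls and at 6.29 and 6.26 in LOF (log2 fold change -0.84, limma adjusted p = 0.439). S100a8 was at 8.50 and 10.02 in controls and at 9.11 and 8.02 in LOF, and S100a9 at 8.56 and 10.50 in controls and at 9.26 and 8.91 in LOF. The groups overlapped in both. Without control replicate 1, S100a9 was lower in LOF (log2 fold change -1.42, limma adjusted p = 0.0463), and without replicate 2 it was at 0.52 (limma adjusted p = 0.703). The mean of the 8 neutrophil markers was 5.23 and 5.76 in controls and 4.80 and 4.99 in LOF, and none passed the test. Csf3r stood at 4.41 and 6.42 in controls and at 4.34 and 4.73 in LOF, above background on control replicate 2 alone. Ltf, a granule protein gene that epithelia also express, stood at 9.63 and 11.04 in controls and at 7.72 and 8.56 in LOF. It alone of the 8 met the 1.5-fold rule, downward. Cxcr2 stood at 6.34 and 5.54 in controls and at 5.04 and 4.73 in LOF (log2 fold change -1.05, limma adjusted p = 0.368). The granule genes Elane, Mpo and Mmp8 were not above background on any carcinoma array. Camp, from the same list, was above it on every carcinoma array (log2 fold change -0.12), and Ngp on control replicate 2 alone. The part of neutrophils in the S100a8 and S100a9 values was not tested. S100a11 was the brightest S100a probe set, at 12.61 and 12.62 in controls and at 12.42 and 12.53 in LOF.

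**Figure D3:**
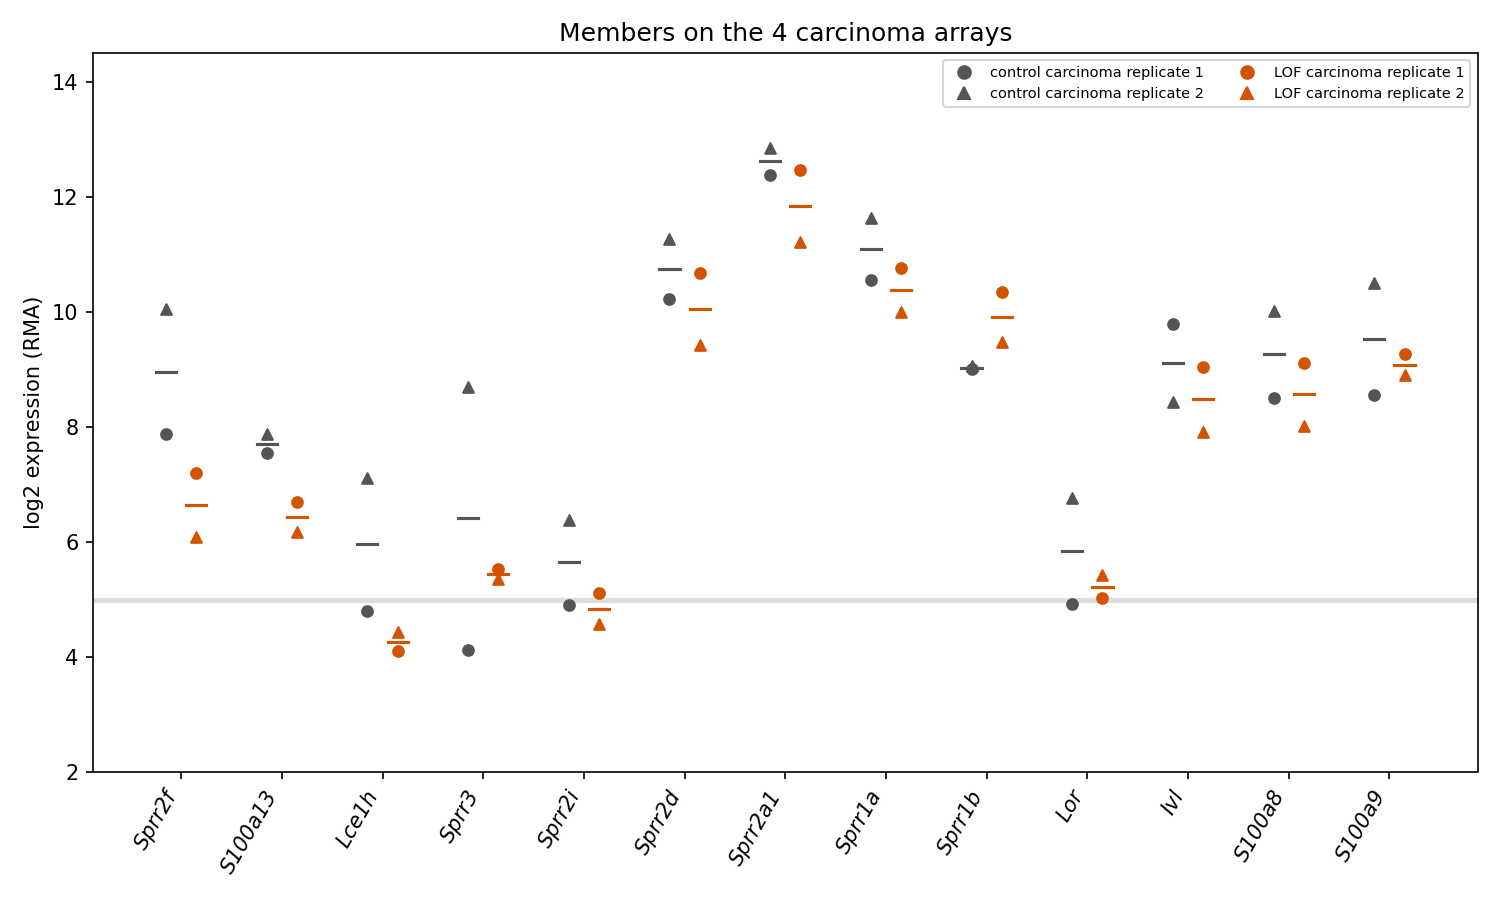
Log2 level on each carcinoma array for 13 members: Sprr2f, S100a13 and Lce1h, 6 further Sprr genes, Lor, Ivl, S100a8 and S100a9. Grey is control and orange LOF, circles and triangles are replicates 1 and 2, bars are group means and the grey band is background; for Sprr2f, Lce1h, Sprr3, Sprr2i, Lor and S100a9 control replicate 2 is more than 1 log2 unit above every other array.

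The third comparison was the difference of the GOF effect and the LOF effect, each taken within its own tumour type. Of the 40 members, 1 passed, S100a13, against 0.368% of all genes. The S100a13 difference was 2.51 on the log2 scale (SE 0.35, limma adjusted p = 0.0413), from 1.24 in papilloma and -1.28 in carcinoma. Lce1d had a difference of 3.35 (limma adjusted p = 0.0559), Sprr2i of 3.53 (limma adjusted p = 0.0942) and Lce3a of 3.73 (limma adjusted p = 0.139), and these did not pass. In carcinoma Lce1d was below background on all 4 arrays, and Sprr2i and Lce3a exceeded it on 1 control and 1 LOF array each. Background thus limits any fall of these genes in carcinoma. For Sprr1b the difference was 0.03 (SE 0.35), its log2 fold change being 0.90 in papilloma and 0.87 in carcinoma. The scales of the tumour types differ, and the part of that in these differences was not tested. The S100a13 call was lost without any 1 papilloma array (limma adjusted p from 0.0898 to 0.233), without control carcinoma replicate 2 (0.0603) and without LOF replicate 1 (0.0865) or 2 (0.113). Without control carcinoma replicate 1 the differences of Lce1d, Sprr2i, Lce3a, Sprr2f, Lor, Lce1h and S100a9 passed (limma adjusted p from 0.00438 to 0.0364). Sprr2i also passed without control carcinoma replicate 2 (0.0497), and Lce1d without control papilloma replicate 2 (0.0264).

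Genes of cornification that are not members were described by a list of 30. It held cross-linking enzymes, suprabasal keratins, junction proteins, proteases, barrier lipid genes and others. Among the others were Hrnr, Crnn, Kprp and Lelp1, which lie within the span of the members on the chromosome. Of the 30, 28 were measured. In GOF papilloma 21 had a positive and 7 a negative log2 fold change, with a median of 0.34. The 1.5-fold rule was met upward by 3 of them: Alox12b, a lipoxygenase of the lipid barrier, at 2.39, Cers3, a ceramide synthase, at 1.47, and Dsg1a, a desmosomal cadherin, at 1.27. Dsg1a alone passed the test (limma adjusted p = 0.0407). Krt1 and Krt10, at -0.61 and -0.42, did not pass, nor did Tgm1, which cross-links the envelope, at 0.52. In LOF carcinoma none passed, and the median was 0.00, with 15 positive and 13 negative values. The lipid transporter gene Abca12 alone met the rule upward, at 1.14. It was below background on both control arrays and above it on LOF replicate 1 alone. Values of the list ran from -1.57 (Calml3 and Kprp) to 1.36 (Alox12b), and 0 genes met the rule downward.

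Of 20 transcription factors known to act on keratinocyte differentiation, 18 were measured and none passed the test in either comparison. In GOF papilloma the median was -0.14, and the 1.5-fold rule was met downward by Junb, an AP-1 subunit, at -0.85 (limma adjusted p = 0.115) and Gata3 at -0.78. Klf4, at 0.05, and Zfp750, at 0.71, did not pass. In LOF carcinoma the median was -0.27, and none met the rule.

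**Figure D4:**
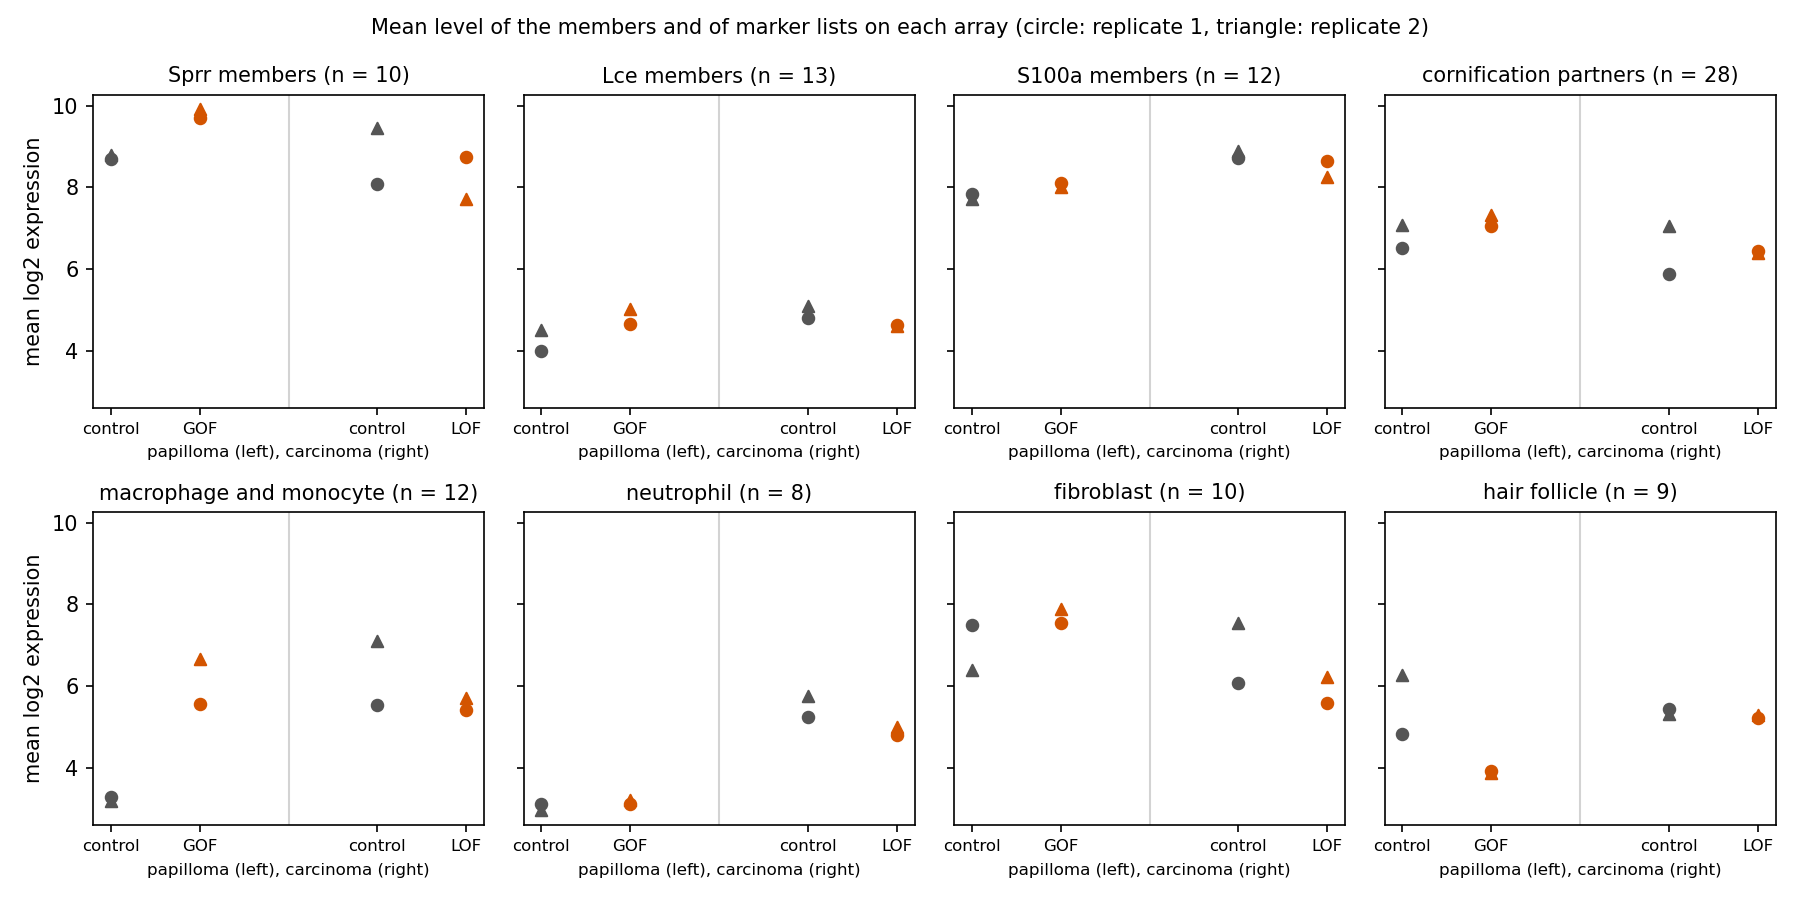
Mean log2 level on each array of the Sprr, Lce and S100a members, of the cornification partners and of 4 lists of marker genes for other cell types. Grey is control and orange the altered group, circles and triangles are replicates 1 and 2, and papilloma (left of the line) and carcinoma (right) are on different scales; the Sprr mean was 8.68 and 8.80 in control papilloma and 9.69 and 9.91 in GOF, and 8.08 and 9.45 in control carcinoma and 8.75 and 7.72 in LOF.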

How the data were processed

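Total RNA of sorted cells was hybridised to 8 arrays, 2 in each of 4 groups taken from the sample titles. The authors deposited 1 table of log2 values normalized with RMA, per the labels. Versions are not given in the sources used here. Papilloma and carcinoma columns differed in median and in decimals (5 and 4), so they were treated as normalized separately.

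Of 45141 probe sets, 104 were controls, 28898 had 1 symbol, 551 several and 15588 none. A gene was its single-symbol probe set with the highest mean over the 8 arrays. Of the 40 members, 35 had 1 such probe set, 5 had several, and 11 were read by a probe set marked _s_at or _x_at. No filter on low values was applied. limma 3.58.1 in R 4.3.3 (lmFit, then eBayes with a trend on level) fitted 4 group means over 8 arrays (4 residual and a median of 3.82 prior degrees of freedom), with Benjamini-Hochberg adjustment over all genes. The tests were tried on simulated data first. A fold is a lower bound ("at least") where neither array of the dimmer group exceeded background. Biopython 1.88 aligned the promoter windows.

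Members, lists and rules were chosen with earlier results of these data known. Members were given array by array when they passed the adjusted threshold or the 1.5-fold rule, were the brightest or most changed of their subfamily, or were Flg, Lor, Ivl, Rptn, Tchh, S100a8 or S100a9. Alternatives were another filter, prior, probe-set rule, scaling, the 4 arrays of a tumour type alone, the replicate block and each array left out. Replicate numbers were shared between groups, but no label pairs them.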

Additional observations from a re-analysis of the deposited data

Results flagged for a closer look

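S100a13 stood out because its GOF effect and its LOF effect differed by a test of the difference itself. The difference was 2.51 on the log2 scale (SE 0.35, limma adjusted p = 0.0413), with 1.24 in papilloma and -1.28 in carcinoma. All 4 array pairs had the higher value in GOF in papilloma, and all 4 the lower value in LOF in carcinoma. The call held in 7 of 17 alternatives, with adjusted p from 0.0156 to 0.233, and the estimate ran from 2.25 to 2.77.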

How the results depend on the processing

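No value changed sign where it had been called. Among the values of single named members 1021 kept their side of the threshold, 32 fell below it and 29 moved past it. Only the 3 GOF calls and the 1 call of the difference could fall below it. Most of the 1021 were therefore values that had not been called at first. Lce1d kept its GOF call in 16 of 18 alternatives (limma adjusted p 0.00917 to 0.155), losing it without GOF replicate 1 (0.0906) or replicate 2 (0.155). Sprr2i kept it in 10 of 19 (0.00387 to 0.271) and Lce3a in 8 of 19 (0.016 to 0.28), and both lost it without any 1 papilloma or LOF array.

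The counts past the adjusted threshold were, for GOF, 179 genes and 3 members, for LOF, 9 genes and 0 members, and for the difference of effects, 63 genes and 1 member. A filter at each array's own median gave 5 genes for LOF and 2 members for the difference. A filter at the median of all values gave 18 genes for LOF and 2 members for the difference. eBayes without a trend gave 115 genes and 1 member for GOF, 2 genes for LOF, and 11 genes and 0 members for the difference. The 4 arrays of a tumour type alone gave 280 genes and 9 members for GOF and 0 genes for LOF. The mean of a gene's probe sets gave 1 member for GOF, 1 gene for LOF, and 4 genes and 0 members for the difference. Median centring gave 2 members for the difference.

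The replicate block gave 106 genes and 1 member (Lce1d, adjusted p 0.0307) for GOF, 0 genes for LOF, and 4 genes and 0 members for the difference. Deviations of same-numbered arrays correlated at 0.010 in papilloma and 0.122 in carcinoma, and the arrays share only a number.

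Leaving out each array in turn, GOF had 4 to 337 genes and 0 to 5 members past the threshold, LOF 0 to 376 genes and 0 to 5 members, and the difference 1 to 501 genes and 0 to 9 members. Without control carcinoma replicate 1 LOF had 376 genes and 5 members, and without replicate 2 it had 62 genes and 1 member. By the 1.5-fold rule, looser here because only 2 array pairs remain, GOF had 821 to 1310 genes and 11 to 14 members higher and 466 to 831 genes and 1 to 6 members lower. LOF had 502 to 662 genes and 0 to 3 members higher and 526 to 1070 genes and 4 to 12 members lower. The median of the members ran from 0.15 to 0.31 in GOF and from -0.55 to -0.08 in LOF. The causes of these changes were not tested. Signal over background limits the low genes: 4 of 40 members in papilloma and 10 of 40 in carcinoma were not above background on any array. Over all 17097 genes these were 5057 in papilloma and 5430 in carcinoma, a larger share than among the members. The number of arrays limits all values.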

Other observations

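A probe set annotated to both Sprr2a3 and Sprr2a1, left out of the members for its several symbols, had a log2 difference of 0.91 in GOF papilloma. In carcinoma it stood at 11.63 and 12.17 in controls and at 11.85 and 9.94 in LOF. The second probe set of Ivl had 0.68 and -0.67, against 0.49 and -0.63 for the brighter one. The second probe set of S100a16 had 0.59 and -0.37, against 0.29 and -0.33. The second probe set of Lce1a1 had -0.68 and -0.13, against -0.28 and -0.11. That of Lce1f had -0.53 and -0.04, against -0.98 and -1.24 for the brighter one. The further probe sets of Rptn had 0.04 and 0.14 in GOF papilloma, against -0.48 for the brightest, and 0.01 each in LOF carcinoma, against -0.11. The further probe sets of Lce1f and Rptn were thus nearer to no change, and those of Rptn differed in sign from the brightest.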
